A study of Rattus norvegicus with 12 samples.

Results

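Signaling genes of inflammation were followed across arrays of silenced, overactive and vehicle-treated rat hippocampal neuron cultures. The group held 10 genes: the chemokines Ccl2, Ccl7, Cxcl1 and Cxcl10, the cytokines Il6, Il1b and Tnf, the interferon-induced genes Mx1 and Mx2, and Ptgs2, which encodes cyclooxygenase-2. Every probe that carries one of these gene names on the array was taken, which gave 13 of 41012 probes, and 10 of 35718 gene names. Ccl7, Il1b and Ptgs2 had 2 probes each and the other genes had 1. A further 7 probes bear the name COX2 for the mitochondrial cytochrome oxidase gene and were not counted as Ptgs2.

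The cultures were dissociated hippocampal neurons from E18.5 Sprague-Dawley embryos, plated at high density and treated at 10 to 13 days in vitro for 48 h. The TTX group received tetrodotoxin (0.5 to 1 μM), which blocks voltage-gated sodium channels and so silences action potentials. The BC group received 20 μM bicuculine (as the labels spell bicuculline), which blocks GABA-A receptors, lifts inhibition and drives burst firing. The CTL group had vehicle alone, which the sample labels give as 0.1% DMSO and the methods as water. Each group had 4 RNA samples, each on 1 single-color Agilent array. Whether these came from separate cultures is not stated in the sources used here, and the p-values speak only of the spread among the samples at hand, part or all of which may be technical. Between 74.1 and 78.1% of probes were well above background on an array. There were 4 slides, and each carried 1 TTX, 1 CTL and 1 BC array. After group means were removed, arrays of slides 1 and 3 deviated together, as did those of slides 2 and 4 (r over all probes 0.20 to 0.41 within these pairs and −0.39 to −0.20 between them).

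Chemokines are secreted proteins that attract leukocytes and also act on receptors of neurons and glia. Ccl2 and Ccl7 bind the receptor Ccr2 and lie side by side in the genome, Cxcl1 binds Cxcr2, and Cxcl10 binds Cxcr3. Il1b, Il6 and Tnf are cytokines made mainly by activated microglia and astrocytes. Mx1 and Mx2 are dynamin-like GTPases that restrict viruses and are induced by type I interferon. Cyclooxygenase-2 makes the precursor of prostaglandins, and in forebrain excitatory neurons its gene is known to be induced by synaptic activity.

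Of the 13 probes, 4 changed with TTX and 4 with BC, at an adjusted p under 0.05 and a change of at least 1.5-fold. With TTX, Mx2 and Cxcl10 were called higher and Ptgs2 and Cxcl1 lower, while over all probes 1.45% were called higher and 2.73% lower, 4.18% in all. With BC, Ccl2, both probes of Ccl7 and Mx1 were called higher and none lower, where 2.12% of all probes were called higher and 1.52% lower, 3.64% in all. The median difference of the 13 probes was 0.29 on the log2 scale for TTX and 0.63 for BC, against 0.01 and −0.01 over all probes. Neither median is read as a shared shift. The TTX value is the reading of Tnf, a probe at background, and the called members went both ways with TTX. The BC value is the reading of 1 Ptgs2 probe, which was not called, and the 4 BC calls, all higher, include 2 probes of Ccl7. Both comparisons share the CTL arrays, so the differences are given side by side and are not independent. Since whole cultures were measured, fewer cells of a type and less RNA per cell cannot be told apart.

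**Figure D1:**
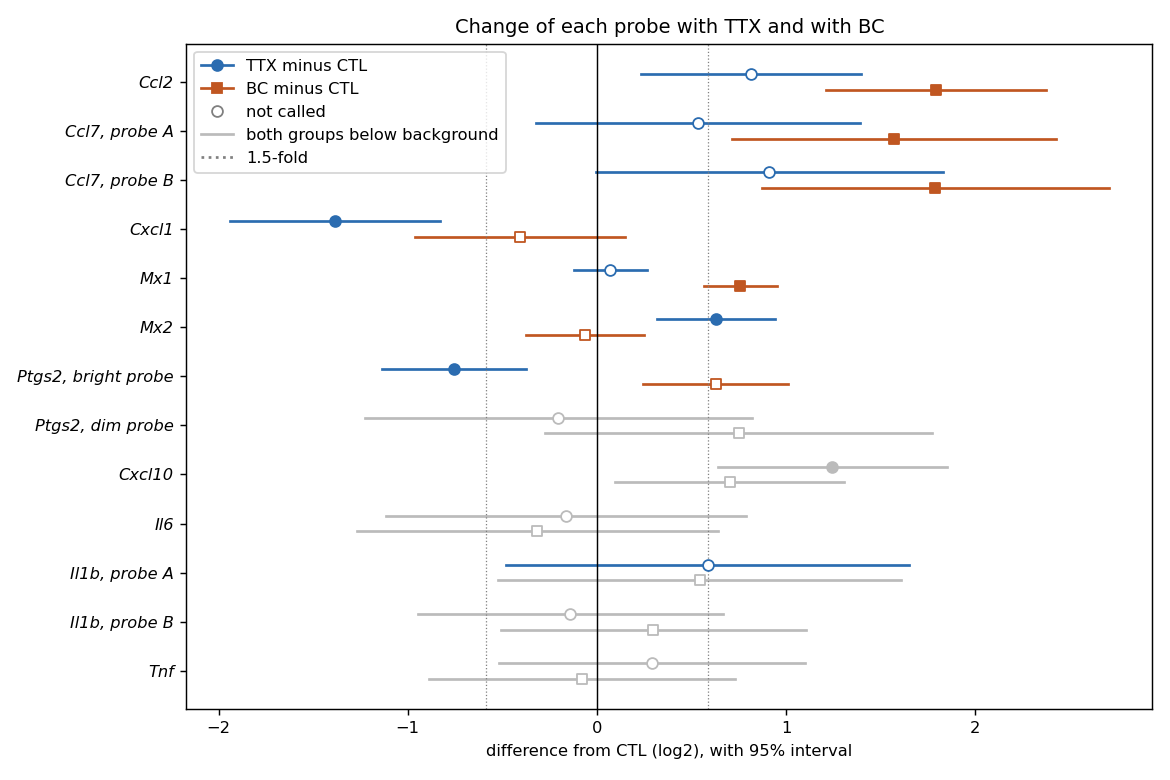
Difference from CTL for each of the 13 probes, on the log2 scale, with 95% intervals from the fit over all probes (TTX circles, BC squares, n = 4 arrays per group). Filled symbols were called, gray marks comparisons in which all spots of both groups were near background, and dotted lines mark 1.5-fold. BC squares lie to the right for Ccl2, Ccl7 and Mx1, and TTX circles lie to the left for Cxcl1 and Ptgs2 and to the right for Mx2.

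Ccl2, the monocyte chemoattractant, rose with BC. Its normalized signal on the log2 scale was 5.67, 6.75, 5.45 and 6.26 on CTL replicates 1 to 4. The BC arrays gave 7.42, 7.83, 8.04 and 8.03, all above the highest CTL array, as was so for 7.45% of all probes (6.32% had all BC arrays below). The TTX arrays gave 6.58, 6.92, 7.09 and 6.79, which overlapped with CTL only at its replicate 2. The difference between BC and CTL was 1.79 (SE 0.26, adjusted p = 0.00195), a 3.47-fold higher signal, and it was positive within each of the 4 slides (1.16 to 2.38). For TTX the difference of 0.81 (SE 0.26, adjusted p = 0.0838, 95% interval 0.23 to 1.39) was not called, and it was positive within 3 of the 4 slides. Without CTL replicate 2, the difference for TTX was 1.05 with an adjusted p of 0.0175. With normexp background correction, the BC difference was 1.17.

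Ccl7, a close relative of Ccl2, rose with BC on both of its probes. The probes overlap on chromosome 10, at chr10:70268643-70268702 and chr10:70268674-70268733 of rn4, the build of the array design, on the plus strand. Both are shown because their readings are not independent: the 29 bases in capitals are in both probes.
Ccl7 probe A: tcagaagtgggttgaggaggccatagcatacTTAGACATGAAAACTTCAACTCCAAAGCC
Ccl7 probe B: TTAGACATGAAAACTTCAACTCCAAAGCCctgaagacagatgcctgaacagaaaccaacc

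On probe B, the CTL arrays gave 2.76, 4.17, 2.66 and 3.03, the TTX arrays 3.91, 4.98, 4.20 and 3.17, and the BC arrays 4.62, 4.73, 4.92 and 5.50. Every BC array of probe B was above every CTL array, whereas TTX overlapped with both. Probe A read 2.53, 4.35, 2.50 and 3.13 in CTL, 3.44, 4.10, 3.91 and 3.19 in TTX, and 4.30, 4.54, 4.90 and 5.05 in BC, and here the CTL replicate 2 lay above the lowest BC array. The rise with BC was 1.79 (SE 0.41, adjusted p = 0.0231) on probe B and 1.57 (SE 0.39, adjusted p = 0.0312) on probe A. Neither probe was called for TTX, with differences of 0.91 (adjusted p = 0.232) and 0.53 (adjusted p = 0.511). Each probe was well above background on all 4 BC arrays, on 2 TTX arrays and on 1 CTL array, so the CTL level rests mostly on readings near background. With normexp correction the rise with BC was 0.37 on probe B and 0.25 on probe A, under 1.5-fold. Leaving out single arrays also ended the calls. Both probes were lost without CTL replicate 1, 3 or 4 or BC replicate 3 or 4 (adjusted p 0.0591 to 0.092), and probe A was lost without BC replicate 2 (adjusted p = 0.0616) and in a fit of the BC and CTL arrays alone (adjusted p = 0.0798). As with Ccl2, the highest of the CTL arrays on both probes was replicate 2.

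Cxcl1, a chemokine that attracts neutrophils, fell with TTX. The CTL arrays gave 6.21, 5.84, 6.85 and 5.91, and the TTX arrays gave 5.03, 5.04, 5.06 and 4.14, with no overlap. Of all probes, 8.21% had every TTX array below every CTL array and 7.63% had every one above. The BC arrays, at 5.95, 5.67, 5.81 and 5.75, lay within or just below the CTL range. The signal fell by 1.38 with TTX (SE 0.25, adjusted p = 0.00576) and was lower within each of the 4 slides. The difference for BC was −0.41 (adjusted p = 0.452, 95% interval −0.96 to 0.15). With normexp correction the TTX difference was −0.60, still called.

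Cxcl10, which is induced by interferon-gamma, was not well above background on any of the 12 arrays. Its TTX arrays (3.10 to 3.74) were all above its CTL arrays (1.58 to 3.08), and the probe was called (adjusted p = 0.0159), but these are background readings and no fold is given. With normexp correction its difference was 0.13 (adjusted p = 0.133), and in a fit of the TTX and CTL arrays alone its adjusted p was 0.055.

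The region before the start of Ccl7 and of Cxcl1 is shown because these chemokines differed in which treatment moved them. Both are 150 bases from RefSeq promoters of GRCr8, printed 5′ to 3′ up to the base before the start, at chr10:67513945-67514094 (plus strand) for Ccl7 and at chr14:17479322-17479471 (minus strand) for Cxcl1. Capitals mark matches to an AP-1 site (TGANTCA) or to the NF-kappa-B site, searched on both strands.
Ccl7 promoter: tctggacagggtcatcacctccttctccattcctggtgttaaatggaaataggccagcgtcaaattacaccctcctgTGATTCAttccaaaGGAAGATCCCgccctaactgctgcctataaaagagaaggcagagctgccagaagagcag
Cxcl1 promoter: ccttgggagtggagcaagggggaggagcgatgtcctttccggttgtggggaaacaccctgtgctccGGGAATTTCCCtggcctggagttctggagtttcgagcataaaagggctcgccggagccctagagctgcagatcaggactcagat

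Ccl7 held 1 NF-kappa-B match, starting 59 bases before the start, and 1 AP-1 match at 73 bases. Cxcl1 held 2 overlapping NF-kappa-B matches, the nearer starting 83 bases before the start, and no AP-1 match. Of 33469 promoters, 6.33% held an NF-kappa-B match and 6.34% an AP-1 match within 250 bases before the start. Promoters of 8 of the 10 genes were in the table; Ccl2 and Mx2 were not. Among the 8, Il6 and Cxcl10 also held an NF-kappa-B match, and Cxcl10 an AP-1 match. A cyclic AMP response element (TGACGTCA, in 1.59% of all promoters) was found in Il6. Il1b, Tnf, Mx1 and Ptgs2 held none of these 3 motifs in this window. These are matches of letters only.

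**Figure D2:**
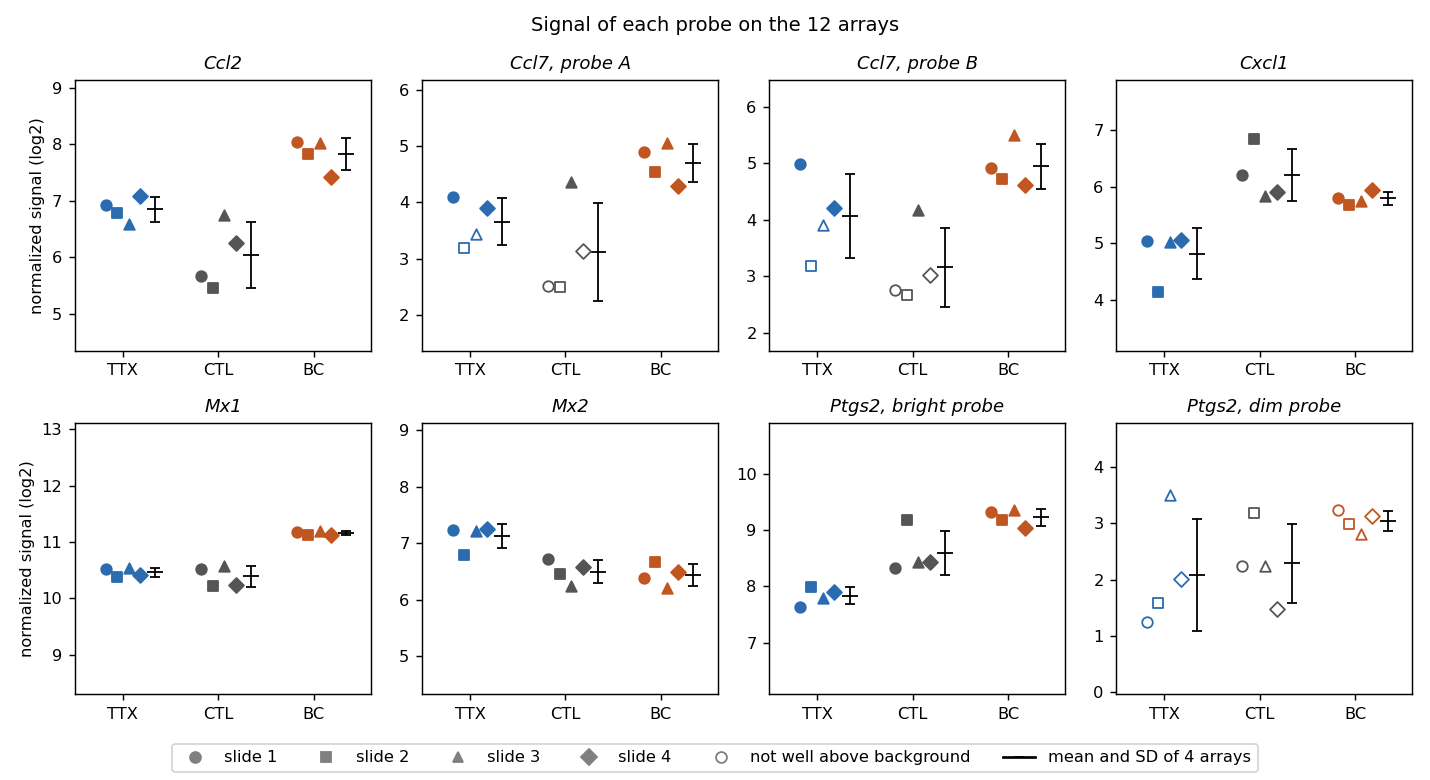
Normalized signal (log2) of 8 probes on the 12 arrays, by group, with 1 panel per probe and the same height of scale in each. Symbols mark the slide, open symbols are spots not well above background, and bars are the mean and SD of 4 arrays. The BC arrays of Ccl2 and Mx1 lie above all CTL arrays, the TTX arrays of Cxcl1 and of the bright Ptgs2 probe lie below them, and the dim Ptgs2 probe is open on every array.

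The cytokines Il6, Tnf and Il1b gave almost no measurable signal. Il6, Tnf and probe B of Il1b were not well above background on any array. Probe A of Il1b was so on 1 array, TTX replicate 2, at 3.59, while the other 3 TTX arrays read 1.25 to 1.27 and the CTL arrays 1.23 to 1.27. None of these 4 probes was called in any comparison, and at this signal no change in any of the 3 cytokines was detectable.

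Mx1 and Mx2 are neighbors on chromosome 11, and each was called with a different treatment. Mx1 rose with BC. Its signal was 10.53, 10.58, 10.23 and 10.24 in CTL, 10.54, 10.53, 10.41 and 10.38 in TTX, and 11.12, 11.12, 11.17 and 11.19 in BC. The BC arrays lay within 0.08 of each other, with no overlap with the other 2 groups, and TTX lay within the CTL range. The rise with BC was 0.76 (SE 0.09, adjusted p = 0.000431), a 1.69-fold higher signal, and it was 0.62 to 0.89 within slides. For TTX the difference was 0.07 (adjusted p = 0.747, 95% interval −0.12 to 0.26).

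Mx2 rose with TTX. Its signal was 6.72, 6.23, 6.46 and 6.57 in CTL and 7.21, 7.23, 7.26 and 6.80 in TTX, with no overlap. The BC arrays read 6.48, 6.67, 6.38 and 6.20, inside or just below the CTL range. The difference was 0.63 for TTX (SE 0.14, adjusted p = 0.0173), 1.55-fold, and −0.06 for BC (adjusted p = 0.921, 95% interval −0.38 to 0.25). TTX was higher than CTL within each slide, by 0.34 to 0.98. Its change lay close to 1.5-fold: with normexp correction it was 0.44 (adjusted p = 0.00607), which is under that fold. The call was also lost without TTX replicate 1, 2 or 3 (adjusted p 0.0502 to 0.0539) and without CTL replicate 2, where the difference was 0.54.

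Since Mx1 and Mx2 are paralogs, their probes are shown; the longest run of bases common to both, in capitals, was 6 bases of 60. The Mx1 probe lies at chr11:37439631-37439690 of rn4 (minus strand), and the Mx2 probe spans 1896 bases at chr11:37568920-37570815 (plus strand), so its 60 bases cross at least 1 intron.
Mx1 probe: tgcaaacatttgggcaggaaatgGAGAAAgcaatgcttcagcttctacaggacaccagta
Mx2 probe: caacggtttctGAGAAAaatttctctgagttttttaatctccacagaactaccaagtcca

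Ptgs2 had a bright probe and a dim one, and the results come from the bright one. The bright probe was well above background on all 12 arrays, the dim probe on none. Both lie on the plus strand of chromosome 13 of rn4, the dim probe at chr13:64430899-64431083, where its 60 bases spread over 185 bases of the genome, and the bright probe farther along the gene at chr13:64434457-64434516. The dim probe has 1 forward reading frame without a stop codon and the bright probe has 0. The whole dim probe and the first 30 bases of the bright probe are shown, since only one of them gave a readable level.
Ptgs2 dim probe: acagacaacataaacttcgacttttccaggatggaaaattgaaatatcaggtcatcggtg
Ptgs2 bright probe: cattcttgtcctgaagaattgctttcttat

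On the bright probe Ptgs2 fell with TTX. The CTL arrays gave 8.33, 8.44, 9.18 and 8.44, and the TTX arrays gave 7.80, 7.64, 7.91 and 8.00, all below the lowest CTL array. The BC arrays gave 9.04, 9.19, 9.33 and 9.35, above 3 of the 4 CTL arrays and overlapping with replicate 3. The difference for TTX was −0.76 (SE 0.17, adjusted p = 0.0187), 0.592 of the CTL signal, and TTX was lower within each slide (−1.18 to −0.53). For BC the difference was 0.63 (SE 0.17, adjusted p = 0.0503, 95% interval 0.25 to 1.01), just short of the threshold.

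Both Ptgs2 results depended on single arrays, and CTL replicate 3 bore on both. Without that array, BC was higher by 0.82 (adjusted p = 0.00133) and was called, and TTX was lower by a difference of −0.57 (adjusted p = 0.0106), which is under 1.5-fold. The TTX call was also lost without TTX replicate 2 (adjusted p = 0.0557) and in a fit of the TTX and CTL arrays alone (adjusted p = 0.06). The BC difference was called with slide as a block (adjusted p = 0.0371) or slide pair as a block (adjusted p = 0.0327). Of 24 settings, 6 called it and 18 did not. With arrays averaged within slide pairs it was not called (adjusted p = 0.196), but that setting left 0 BC calls over all probes. A fit of BC and CTL alone, blocked by replicate number and added after seeing the data, gave an adjusted p of 0.198. The numbers do not pair these arrays, so that fit cannot decide the question. Over all probes it cut the BC calls from 1493 to 241. Within slide 2, which holds CTL replicate 3, BC and CTL differed by 0.01, and within the other 3 slides by 0.60 to 0.99.

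The dim probe read 2.24, 2.24, 3.18 and 1.48 in CTL, 3.49, 1.26, 2.00 and 1.58 in TTX, and 3.13, 2.98, 3.23 and 2.81 in BC. Its differences were −0.20 for TTX (adjusted p = 0.902) and 0.75 for BC (adjusted p = 0.456), with the same signs as the bright probe, but its readings are background in all 3 groups and give no level. Across the 12 arrays the 2 probes correlated at r = 0.61, whereas the overlapping Ccl7 probes correlated at r = 0.95; the arrays share the group differences, so these values are descriptions.

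TTX and BC were also set against each other, in the same fit of all 12 arrays. In that comparison 11.2% of all probes were called (4.95% higher in TTX and 6.22% lower), and 5 of the 13. Ptgs2 (bright probe) was lower in TTX than in BC by a difference of −1.39 (adjusted p = 0.00018), Mx1 by −0.69 (adjusted p = 0.000211), Ccl2 by −0.98 (adjusted p = 0.0194) and Cxcl1 by −0.98 (adjusted p = 0.0155). Mx2 was higher in TTX, by 0.69 (adjusted p = 0.00437). For all 5 the TTX and BC arrays did not overlap, as held for 13.2% of all probes in the higher and 13.4% in the lower direction. The Ccl2 call was lost without BC replicate 3, BC replicate 4 or TTX replicate 1 (adjusted p 0.0536 to 0.0556). The Mx2 and Cxcl1 calls were lost with normexp correction (0.44 and −0.37, under 1.5-fold), with the median signal and with the deposited log2 values, and with arrays averaged within slide pairs (adjusted p = 0.0549 and 0.0668). The Ccl7 probes A and B differed by −1.04 (adjusted p = 0.0802) and −0.88 (adjusted p = 0.169) and were not called. Both were called with averaged pairs (adjusted p = 0.0268 and 0.0182), and probe A was called in a fit of the TTX and BC arrays alone (adjusted p = 0.0206).

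**Figure D3:**
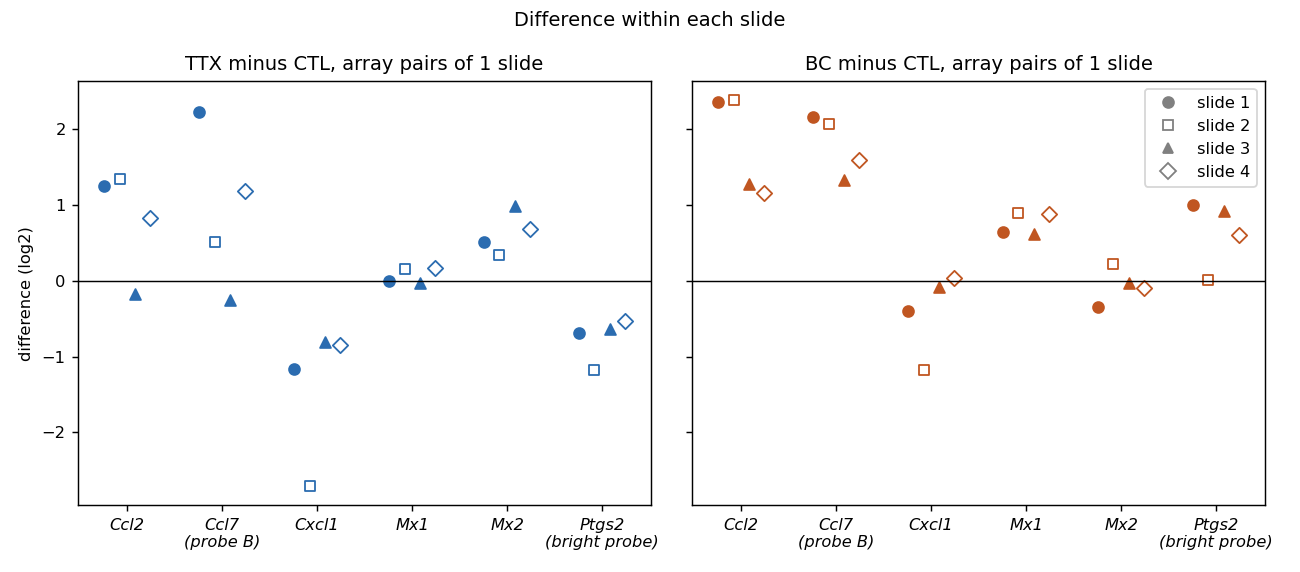
Difference from the CTL array of the same slide (log2), for TTX on the left and BC on the right, with 1 symbol per slide and open symbols for slides 2 and 4. TTX lies below 0 on all 4 slides for Cxcl1 and Ptgs2 and above 0 on all 4 for Mx2, and BC lies above 0 on all 4 slides for Ccl2, Ccl7 and Mx1.

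Calls against CTL, over all probes as among the members, leaned on treating the 4 arrays of a group as separate. With each group's arrays averaged within a pair of slides and the pair as a block, none of the members' BC calls was kept (adjusted p = 0.0669 to 0.0804). This says nothing particular about the members, since the 1493 BC calls over all probes became 0 in that setting. Of the members' TTX calls only the one at background, Cxcl10, was kept (Cxcl1 had an adjusted p of 0.0819). Over all probes, the 1715 TTX calls became 512. With slide as a block in the fit of all arrays, every member call against CTL was kept. Arrays of TTX and CTL with the same replicate number also deviated together, and they always lay in the same slide pair. With the replicate number as a block in a fit of the TTX and CTL arrays alone, a setting added after seeing the data, Cxcl1 was called (adjusted p = 0.0315), and Ptgs2 (adjusted p = 0.0582), Mx2 (adjusted p = 0.0698) and Cxcl10 (adjusted p = 0.0779) were not.

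Among other chemokine ligands, 28 genes were measured by at least 1 probe. For TTX, 2 of them were called higher and 1 lower (10.7%). For BC, 4 were called higher and 1 lower (17.9%). Of all probes, 4.18% were called for TTX and 3.64% for BC. The median difference was −0.05 for TTX and 0.12 for BC. Cxcl9, like Cxcl10 a ligand of Cxcr3, rose with TTX by 2.18 (adjusted p = 0.0152), being well above background on 4 TTX and 2 CTL arrays, and its BC difference was −0.53. Ccl17, a ligand of Ccr4, was lower with TTX by −1.54 (adjusted p = 0.000762), to a level that was well above background on 1 of 4 TTX arrays, and higher with BC by 0.76 (adjusted p = 0.0397). Ccl19, a ligand of Ccr7, rose with BC by 2.22 (adjusted p = 0.0111), from a CTL signal that was well above background on 1 of 4 arrays. Cxcl12, which guides migrating neurons through Cxcr4, fell by a BC difference of −1.03 (adjusted p = 0.000497). The remaining calls, Cxcl13 with TTX and Ccl3 and Ccl12 with BC, were of genes that no CTL array had well above background; they are named after their values were seen.

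Of 19 chemokine receptors, 6 were well above background on all arrays of at least 1 of the groups compared, for TTX and for BC alike. Among these 6, Cxcr1, a receptor for neutrophil-attracting chemokines, was lower with TTX by −2.08 (adjusted p = 0.000292), and it was the only call in the 2 comparisons with CTL.

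There were 42 other cytokines and cytokine receptors, of which TTX gave 1 higher and 1 lower call (4.76%) and BC 4 higher and 1 lower (11.9%). Over all probes these shares were 4.18% and 3.64%. Tnfrsf1b, a receptor of Tnf, rose with both TTX (1.00, adjusted p = 0.0143) and BC (1.09, adjusted p = 0.0102), and it was well above background on 1 of 4 CTL arrays. Il1rap, the accessory protein of the interleukin-1 receptor, was lower with TTX by −0.76 (adjusted p = 0.00974). Il17ra, a receptor of interleukin-17, was lower with BC by −1.24 (adjusted p = 0.00395). Il4, a cytokine of type 2 immunity, was at least 2.19-fold higher with BC (adjusted p = 0.000758), as a lower bound, since no CTL array had it well above background; the group means were 4.65 in BC and 3.34 in CTL.
Among 35 genes of NF-kappa-B and acute phase signaling, 2 fell with TTX (5.71%) and 2 rose with BC (5.71%). These shares lay near those over all probes, 4.18% for TTX and 3.64% for BC. Sele, which encodes E-selectin, moved with both, by −0.93 with TTX (adjusted p = 0.0119) and 0.94 with BC (adjusted p = 0.0128). Nfkbie, an inhibitor of NF-kappa-B, was lower with TTX (−0.61, adjusted p = 0.0206), and Rel, one of its subunits, was higher with BC (0.76, adjusted p = 0.0144).

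Around Mx1 and Mx2, 50 further genes of interferon and its response were measured. The TTX calls were 3 higher and 1 lower (8%), and the BC calls 2 higher and 2 lower (8%), with median differences of 0.13 and 0.03. Over all probes the shares called were 4.18% and 3.64%. Ifit1, an interferon-induced RNA-binding protein, rose with TTX by 0.70 (adjusted p = 0.00174) and Ifi44 by 0.63 (adjusted p = 0.027), as Mx2 did, and their BC differences were 0.04 and −0.12. Ifit2 rose with BC by 0.89 (adjusted p = 0.0184) and Ifitm3, a membrane protein that restricts viral entry, by 0.84 (adjusted p = 0.00597), as Mx1 did. Some genes of the list had means above CTL with both treatments. Oas1a had means of 6.37 in CTL, 7.00 in TTX and 6.98 in BC, and Dhx58 had means of 6.06, 6.68 and 6.77. Both are named after their values were seen. Neither was called with BC, and Oas1a was not called with TTX. Irf5, a transcription factor of the interferon response, was lower with both, by −0.62 with TTX (adjusted p = 0.00134) and −1.26 with BC (adjusted p = 2.94e-05).

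Around Ptgs2, 32 further genes of prostanoid synthesis, transport, breakdown and reception were measured. TTX calls numbered 2, both lower (6.25%). BC calls numbered 5, of which 3 were higher and 2 lower (15.6%). The shares over all probes were 4.18% for TTX and 3.64% for BC. Ptgs1, which encodes the other cyclooxygenase, was lower with TTX by −2.21 (adjusted p = 3.34e-05) and higher with BC by 1.84 (adjusted p = 0.000135). Only 2 of the 4 TTX arrays had it well above background. The direction of its differences was that of the bright Ptgs2 probe. Ptger3, a receptor of prostaglandin E2, was also lower with TTX, by −1.15 (adjusted p = 0.00116), and higher with BC, by 1.40 (adjusted p = 0.000377). Ptgr1, a reductase that inactivates prostaglandins, rose with BC by 1.53 (adjusted p = 0.000135) and differed by 0.06 for TTX. The 2 that fell with BC, named after their values were seen, were Faah (−0.73, adjusted p = 0.0132) and Hpgd (−0.62, adjusted p = 0.000182), which break down endocannabinoids and prostaglandins.

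**Figure D4:**
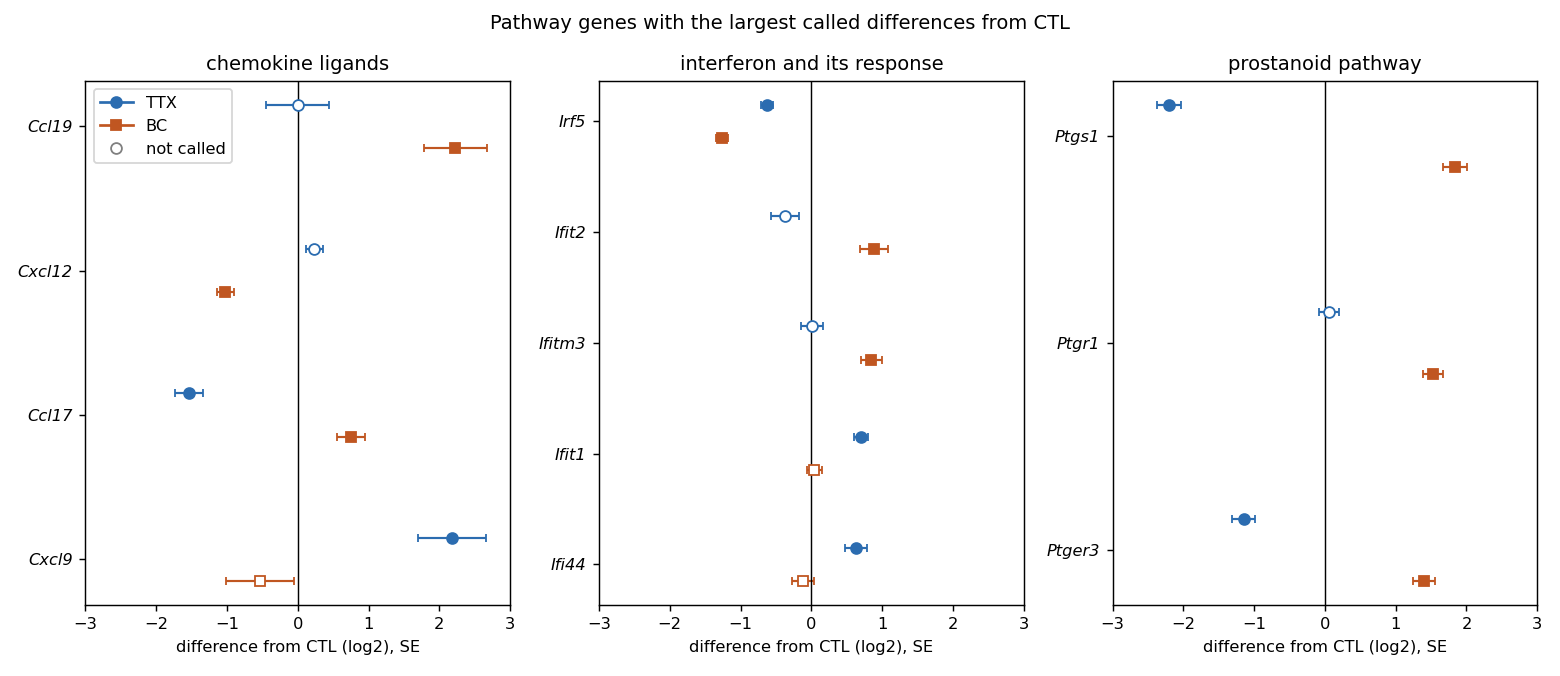
Difference from CTL (log2, bars are SE, n = 4 arrays per group) for genes near the members in function, up to the 3 with the largest called difference per list and comparison. Filled symbols were called. Ptgs1 and Ptger3 lie to the left with TTX and to the right with BC, Ifit1 and Ifi44 to the right with TTX alone, and Ifit2 and Ifitm3 to the right with BC alone.

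In a list of 38 activity-regulated genes, TTX gave 9 lower calls and 0 higher (23.7%), and BC gave 8 higher and 4 lower (31.6%). Bdnf, a neurotrophin, was lower with TTX by −1.45 (adjusted p = 0.000102), and Npas4, an activity-dependent transcription factor, was higher with BC by 1.23 (adjusted p = 0.00336). Egr2, a transcription factor of the early growth response family, had the largest BC change of the list and was lower, by −1.62 (adjusted p = 7.08e-05). Vgf, a neuropeptide precursor, had the largest TTX change, −2.61 (adjusted p = 9.05e-07).

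The defining markers of the cell types known to make chemokines and cytokines were read on the same arrays. Aif1 and Itgam, which mark microglia and macrophages, were not well above background on any array, while Csf1r was on all 12 and had group means of 5.52 in CTL, 5.58 in TTX and 5.44 in BC. Of 18 microglia and macrophage markers, 10 were well above background on all arrays of at least 1 of the groups compared. TTX gave 1 call in each direction (11.1%) and BC gave 1, higher (5.56%), where 4.18% and 3.64% of all probes were called. The summed linear signal of the 18 ranged from 1728 to 2113 in TTX, from 2240 to 3293 in CTL and from 7266 to 9068 in BC. This spread came from 1 gene. Lyz2, the lysozyme of myeloid cells, was the one called with BC (2.30, adjusted p = 3.13e-05) and the one lower with TTX (−1.05, adjusted p = 0.00236). Without Lyz2 the other 17 summed to 1067 to 1456 in TTX, 1181 to 1414 in CTL and 1080 to 1389 in BC, ranges that overlap.

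Of 15 endothelial, mural and fibroblast markers, 3 fell with TTX (20%) and 3 rose with BC (20%). For this and the next marker lists, the shares over all probes were 4.18% with TTX and 3.64% with BC. The summed signals of the 15 markers were 8814 to 10190 in TTX, 12030 to 14950 in CTL and 19520 to 26330 in BC. Without Lum and Dcn the sums overlapped, at 3985 to 5861, 3606 to 6518 and 4703 to 11840. Lum and Dcn, proteoglycans of fibroblasts, were lower with TTX (−0.98 and −0.62) and higher with BC (0.85 and 0.87), and Cldn5, a tight junction protein of endothelium, was higher with BC by 1.65 (adjusted p = 0.00671), being well above background on 4 BC and 2 CTL arrays. Of other endothelial genes, Pecam1 was near background on all arrays, whereas Cdh5, Flt1 and Kdr, named after their values were seen, were well above it on all 12 and were not called. Vwf, of endothelium, and Col1a2, of fibroblasts, also named after their values were seen, were not called with BC. Their means were nevertheless higher in BC (4.20 and 9.21) than in CTL (3.20 and 7.54). Vwf was well above background on 4 BC and 2 CTL arrays. Other markers of the list did not go along, and they too are named after their values were seen. The fibroblast collagens Col1a1 and Col3a1 had BC means of 9.49 and 7.20, below their CTL means of 9.58 and 7.35. Pdgfrb, of mural cells, had means of 7.24 in BC and 7.19 in CTL. The astrocyte marker Gfap had group means of 11.45 in CTL, 11.45 in TTX and 11.39 in BC. Of 14 astrocyte markers 1 was called with TTX (7.14%), Fabp7, which was higher by 0.63 (adjusted p = 0.000935), and 0 with BC. The median difference of the 14 was 0.23 for TTX and −0.06 for BC, so Gfap does not stand for the list. Their summed signals overlapped, at 199400 to 263300 in TTX, 171400 to 213300 in CTL and 177200 to 214700 in BC. The neuronal marker Rbfox3 had means of 14.29, 14.14 and 14.28, and Slc17a7, of glutamatergic neurons, had means of 11.41, 11.58 and 11.11, in the same order. Of 14 neuron markers, TTX gave 1 higher call and 3 lower (28.6%), the 3 being Gad1, Gad2 and Slc32a1 of GABAergic neurons, and BC gave 0. Of 10 oligodendrocyte lineage markers, TTX gave 1 call in each direction (20%) and BC gave 0. The part of cells bearing Lyz2, Cldn5 or the fibroblast markers in the changes of Ccl2, Ccl7, Cxcl1 and Ptgs2 was not tested.

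Genes whose pattern over the 12 arrays was most like each called member were sought among 11437 genes, for the 5 members whose brightest probe was well above background on all 12 arrays. Ccl7 was not among these. Nearest to Ptgs2 were Kcnmb2 (r = 0.987), Rnf128 (r = 0.980) and Igf1 (r = 0.975), and nearest to Mx1 were Ptgr1 (r = 0.974), Fcer2 (r = 0.965) and Tcp11l2 (r = 0.962). For Mx2 they were Tmtc2 (r = 0.975), Trim25 (r = 0.971) and Ifi30 (r = 0.968). Cd244 (r = 0.957), Cdh8 (r = 0.941) and Igbp1b (r = 0.935) were nearest to Ccl2, and Pvalb (r = 0.953), Trim45 (r = 0.938) and Cog5 (r = 0.930) to Cxcl1. These are the highest values of many, over arrays that share the group differences and the slides.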

How the data were processed

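The authors deposited a scanner file per array, in which Feature Extraction 9.5.1.1 gives a processed signal intensity per spot after subtraction of background and a spatial trend. They also deposited log2 values of the same arrays, quantile-normalized, which were used as an alternative. The BC replicate 2 column of those log2 values holds 1131 empty values. Probe positions come from the array design (rn4). Groups were taken from the sample labels.

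Processed signals were taken to log2, outlier spots were left out, and the 12 arrays were quantile-normalized. A linear model with a mean for each group was fitted to all probes and arrays with limma 3.58.1 (R 4.3.3), and variances were moderated by eBayes. Adjusted p-values follow Benjamini and Hochberg over all probes. A probe was called at an adjusted p under 0.05 and a change of at least 1.5-fold or at most 0.667-fold, with no filter on dim probes. A gene of a list was represented by its brightest probe. Names were taken from the reference table of GRCr8: 10804 probes matched by accession, 5142 by symbol and 3446 by synonym, and 21620 kept the name in the files. The steps were tested on simulated data for TTX against CTL, with noise drawn independently for each array. The simulation therefore does not cover arrays that deviate together in slide pairs, as these did. Calls over all the chemokine receptors are not reported here. The number of arrays limits the precision. The members and lists were chosen with earlier results of these data known. The genes named beside the members are up to 3 called genes per list and comparison with CTL with the largest change, with every array of at least 1 group well above background, the 3 genes most like each called member, and defining markers of cell types.

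Replicate numbers were checked as a pairing. After group means were removed, same-numbered arrays correlated at 0.28 to 0.38 for CTL with TTX, −0.35 to −0.24 for BC with CTL and −0.38 to −0.28 for BC with TTX, and 2 of 12 arrays matched their own number best. Same-numbered CTL and TTX arrays always lay in the same slide pair, and same-numbered BC arrays in the other pair. The values lay within the ranges seen within and between slide pairs, so the number showed no pairing beyond that of the slide pairs. Alternatives were normexp (offset 50), median signal without background subtraction, 75th percentile scaling, only probes well above background, the deposited log2 values, slide, slide pair or replicate blocks, averaged slide pairs, only the 2 groups compared, trend and robust eBayes, no fold threshold, any probe of a gene, and leaving out each array. Figures were drawn in matplotlib 3.10.9. Files were handled in Python 3.11.15 (numpy 2.4.6, pandas 2.3.3) and in R with the package data.table, version 1.17.8.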

Additional observations from a re-analysis of the deposited data

Results flagged for a closer look

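In 6 of the 39 probe and group combinations, 1 of the 4 arrays stood far from the other 3, by the size of its gap relative to the range of the group. For independent, normally distributed readings this cut marks about 1 group in 20. Some of these readings were at background and all probes share the same arrays, so the 6 cannot be weighed against that rate. CTL replicate 3 was high for the bright Ptgs2 probe (9.18) and, at background, for Tnf (3.27). TTX replicate 4 was low for Mx2 (6.80) and for Cxcl1 (4.14). TTX replicate 2 was high for probe A of Il1b (3.59), the only spot of that gene well above background, and for Il6 (2.99), at background.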

How the results depend on the processing

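No difference of a member probe that was called turned its sign under any alternative. The 4 calls for TTX against CTL became 2 with normexp correction, with the median signal and with the deposited log2 values, 2 with only the 2 groups compared, 1 with averaged slide pairs, and 1 with the replicate block fitted to TTX and CTL alone. The 4 calls for BC against CTL became 2 with normexp, the median signal and the deposited values, and 0 with averaged slide pairs. Fitted to BC and CTL alone, the replicate block, added in this form after seeing the data, gave 0, where the numbers do not pair the arrays. The 5 calls for TTX against BC became 3 with normexp, the median signal and the deposited values. The replicate block over all arrays gave 4, 5 and 5 calls in the 3 comparisons, the added BC call being Ptgs2. Leaving out 1 array gave 2 to 4 calls for TTX against CTL (2 without TTX replicate 2), 2 to 4 for BC against CTL (2 without CTL replicate 1, BC replicate 3 or BC replicate 4, when both Ccl7 probes were lost, as they also were without CTL replicate 3 or 4, where another probe was gained) and 4 to 6 for TTX against BC. Over all probes, the 1715 calls for TTX were 892 with normexp, 949 with the median signal, 938 with the deposited values, 512 with averaged slide pairs and 4054 with no fold threshold. The 1493 calls for BC were 770, 828, 830, 0 and 3361 in that order, and the 4579 for TTX against BC were 2608, 2753 and 2729 with the first 3 and 9867 with no fold threshold. Depth here means signal over background: Cxcl10, Il6, Tnf, Il1b and the dim Ptgs2 probe were too dim for a change to be read, and Ccl7 was near background in CTL.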
